A study of Mus musculus with 4 samples.

Results

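The 36 genes described here are the secreted enzymes of the pancreatic acinar cell, the proteins made with them and 4 of the transcription factors that control them. They were chosen by symbol as acinar genes, and all 36 were found among the 32285 genes of the count tables. They comprise 6 trypsinogens (Prss1, Prss2, Prss3, Try4, Try5, Try10), 4 elastases (Cela1, Cela2a, Cela3a, Cela3b), 3 chymotrypsinogens (Ctrb1, Ctrl, Ctrc) and 2 carboxypeptidases (Cpa1, Cpb1). Lipid digestion is covered by pancreatic lipase and its relatives (Pnlip, Pnliprp1, Pnliprp2), carboxyl ester lipase (Cel) and colipase (Clps). A mixed group of 8 holds amylase (Amy2a2), ribonuclease (Rnase1), phospholipase A2 (Pla2g1b), kallikrein (Klk1), the granule proteins Zg16, Sycn and Gp2, and the endoplasmic reticulum protein Erp27. The trypsin inhibitor Spink1, the Reg proteins Reg1, Reg2 and Reg3b and the regulators Ptf1a, Rbpjl, Bhlha15 and Nr5a2 complete the list.

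The samples were 4 single-cell libraries of mouse pancreas, 1 for each group: a KPC tumour treated with AF12198, a control KPC tumour, a suture-ligated pancreas and a normal pancreas. KPC cells, a mouse pancreatic cancer line, had been injected into pancreas ligated by suture, so both tumours also carried the ligation, which occludes the duct and brings on pancreatitis. The control tumour received weekly intraperitoneal saline and the treated tumour weekly AF12198, a peptide antagonist of the interleukin 1 receptor IL1R1, and all tissues were taken at 4 weeks. Each group is thus 1 library from dissociated tissue, age, sex and strain are not given in the labels, and a difference between groups cannot be told apart from a difference between animals or libraries. The design asks how ligation, tumour and blockade of the interleukin 1 receptor bear on the pancreas, and the acinar genes are one reading of that.

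Acinar cells make the digestive enzymes as inactive precursors, store them in zymogen granules and release them into the duct. Their genes are switched on by the PTF1 complex, in which Ptf1a binds with Rbpj or its acinar form Rbpjl, and are further supported by Bhlha15, also called Mist1, and by the nuclear receptor Nr5a2. Reg proteins are secreted by injured or inflamed acinar cells, and acinar RNA is so abundant that it leaks into the suspension and is captured with other cells.

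After filtering, 18875 cells of the AF12198-treated tumour, 19235 of the control tumour, 1124 of the ligated pancreas and 1771 of the normal pancreas remained. They held 85735234, 80398550, 5315805 and 11235204 unique molecular identifiers (UMIs) in that order, with medians of 1589 to 2298 per cell. The ribosomal-repeat transcript Gm42418 took 14.96% of UMIs in the ligated pancreas, against 4.49 to 7.45% in the other 3 libraries. Between 16 and 139 kept cells per library had a barcode that also occurred in another library, among them 2 acinar-like cells of each tumour. With 1 library per group there are no replicates and no tests. Intervals are 95%, exact, and cover counting error only, and levels are given as CPM, a gene's UMIs scaled by all UMIs of the cells summed. A gene is called past 2-fold where the ratio of its CPM reaches 2 in either direction, given at least 10 UMIs in both groups together and 5 CPM in one.

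Promoter sequences of 4 members are shown, from 250 bases before to the base before the RefSeq start site, because they hold the letters of the PTF1 half-sites and belong to genes that the results below treat apart: a chymotrypsinogen, an elastase, a Reg gene and a regulator. They are from RefSeq on build GRCm38.p6, written 5′ to 3′ on the gene's strand. Capitals mark CACCTG, the E-box letters, or TTTCCC, the TC-box letters, found on either strand, so that CAGGTG and GGGAAA are the same matches read on the other strand.
Ctrb1: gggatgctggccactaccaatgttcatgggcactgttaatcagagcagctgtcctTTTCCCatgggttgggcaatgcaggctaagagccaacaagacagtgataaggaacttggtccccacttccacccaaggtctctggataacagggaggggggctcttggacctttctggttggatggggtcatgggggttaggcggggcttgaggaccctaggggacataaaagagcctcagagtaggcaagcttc
Cela2a: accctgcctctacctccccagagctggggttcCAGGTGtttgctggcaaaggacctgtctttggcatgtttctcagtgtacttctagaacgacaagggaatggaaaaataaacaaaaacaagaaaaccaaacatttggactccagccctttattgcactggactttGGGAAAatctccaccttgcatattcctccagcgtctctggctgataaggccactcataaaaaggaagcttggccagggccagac
Reg3b: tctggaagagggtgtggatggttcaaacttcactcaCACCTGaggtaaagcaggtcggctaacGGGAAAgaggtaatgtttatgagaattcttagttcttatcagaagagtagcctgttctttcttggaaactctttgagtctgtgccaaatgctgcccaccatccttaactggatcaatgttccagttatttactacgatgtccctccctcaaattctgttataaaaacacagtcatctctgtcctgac
Rbpjl: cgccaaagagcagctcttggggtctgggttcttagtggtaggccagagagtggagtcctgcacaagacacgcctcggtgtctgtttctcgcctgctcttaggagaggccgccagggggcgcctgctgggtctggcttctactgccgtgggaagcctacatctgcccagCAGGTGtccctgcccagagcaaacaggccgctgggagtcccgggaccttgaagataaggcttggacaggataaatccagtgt
The Ctrb1 stretch lies at chr8:111691011-111691260 on the minus strand and holds TTTCCC alone. The Cela2a stretch at chr4:141826006-141826255, minus strand, and the Reg3b stretch at chr6:78370635-78370884, plus strand, hold both motifs. The Rbpjl stretch at chr2:164402944-164403193, plus strand, holds CACCTG alone. Of the 36 members, 29 had a promoter in the RefSeq table, and over windows from 250 bases before to 50 bases after the start CACCTG occurred in 18 of them (62.1%), against 20.2% of all 32851 promoters in the table. TTTCCC occurred in 11 members (37.9%), against 25.3% of all promoters, and both together in 8 members (27.6%), against 4.86%. TCAAGGTCA, the letters bound by Nr5a2 and its relatives, was in none of the member promoters and in 0.423% of all promoters. A match describes letters and is not a bound site.

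Acinar cells were few in these suspensions, and fewest in the normal pancreas. A single cluster was called acinar-like from 9 markers outside the member list, among them Cuzd1 and Serpini2. It held 326 of 18875 cells (1.73%, interval 1.55 to 1.92) in the AF12198-treated tumour, 57 of 19235 (0.296%, 0.225 to 0.384) in the control tumour, 11 of 1124 (0.979%, 0.490 to 1.74) in the ligated pancreas and 2 of 1771 (0.113%, 0.0137 to 0.407) in the normal pancreas. The acinar-like share was 5.83-fold higher in the treated than in the control tumour (4.39 to 7.87), and 0.303 times in the control tumour what it was in the ligated pancreas (0.157 to 0.640). It was 8.67-fold higher in the ligated than in the normal pancreas, with an interval from 1.89 to 80.5 that rests on 2 cells. Counted only among acinar-like, epithelial-like, fibroblast-like and endothelial-like cells, acinar-like cells made up 13.8% in the treated tumour, 1.78% in the control tumour, 1.45% in the ligated pancreas and 0.194% in the normal pancreas. Acinar cells form most of a normal pancreas, so these shares describe the dissociated suspensions and not the tissue.

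The markers that named the cluster are raised in it by the naming rule, so their level is a description. They summed to 31120, 21590, 47440 and 38790 CPM in acinar-like cells of the treated tumour, control tumour, ligated and normal pancreas, against 65.3, 13.3, 180 and 252 CPM in all other cells. When the members were left out of the genes used for clustering, the acinar-like cluster held 325, 52, 9 and 3 cells, of which 322, 52, 9 and 2 were the same barcodes. The lists of other cell types were lower in these cells than in the rest of their library for fibroblast-like markers, at 417 against 4011 CPM in the treated tumour, 2086 against 10560 CPM in the control tumour and 3179 against 22190 CPM in the ligated pancreas. Plasma-like markers summed to 147 against 4543 CPM in the treated tumour, 1665 against 14300 CPM in the control tumour and 372 against 4023 CPM in the ligated pancreas. Epithelial-like markers stood at 1208 CPM in acinar-like and 1337 CPM in other cells of the treated tumour, and were higher in acinar-like than in other cells of the control tumour, at 2350 against 1684 CPM. In the ligated pancreas they stood at 258 against 3008 CPM. Erythroid-like markers were higher in acinar-like than in other cells of the treated tumour, at 2343 against 1616 CPM, and lower in those of the control tumour, at 316 against 4580 CPM. Acinar-like cells of the treated tumour thus carried less fibroblast, plasma and epithelial marker RNA than those of the control tumour. Their median depth was 5186 UMIs in the treated and 2197 in the control tumour. The part of both in the differences within acinar-like cells was not tested.

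For the whole suspension, 11 abundant enzymes (Prss2, Try4, Try5, Cela2a, Cela3b, Cpa1, Cpb1, Ctrb1, Clps, Pnlip and Cel) were summed as core enzymes. Their level was 10280 CPM (10260 to 10300) in the treated tumour, 860 CPM (854 to 867) in the control tumour, 6176 CPM (6109 to 6243) in the ligated pancreas and 2626 CPM (2596 to 2656) in the normal pancreas. Acinar-like cells held 93.0% of these UMIs in the treated tumour, 87.4% in the control tumour, 74.4% in the ligated pancreas and 10.6% in the normal pancreas. In the normal pancreas most acinar RNA was therefore counted in cells that were not acinar-like. Each acinar-like cell carried on average 2514, 1060, 2222 and 1556 core UMIs in the treated tumour, control tumour, ligated and normal pancreas, and the median share of a cell's UMIs from the core enzymes was 31.9, 20.6, 39.9 and 36%. In sums over a library, fewer acinar cells and less enzyme RNA per cell cannot be told apart.

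Barcodes with at least 10% of their UMIs from the core enzymes numbered 324, 47, 11 and 2 in the treated tumour, control tumour, ligated and normal pancreas, and all lay in the acinar-like cluster. With the line at 5% the numbers were 330, 56, 13 and 17, and at 20% they were 281, 31, 9 and 2. Between both lines lay 49 cells of the treated tumour, 25 of the control tumour, 4 of the ligated pancreas and 15 of the normal pancreas. A further 56 barcodes of the treated tumour passed the 10% line but not the cell filter, against 0 in the control tumour, 1 in the ligated pancreas and 3 in the normal pancreas. Another 14 of the treated tumour were removed as doublets, and 0 in the other 3 libraries. Both removals lowered the count of such barcodes in the treated tumour, the library with the most acinar-like cells. The acinar-like cluster changed in both tumours. With doublets kept it held 370 cells of the treated and 72 of the control tumour, against 326 and 57 with doublets removed.

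Outside the acinar-like cluster, every named class of cell carried some enzyme RNA. In all 12 named classes measured in both tumours it was higher per cell in the treated than in the control tumour. These other cells held on average 3.34 core UMIs in the treated tumour (3.31 to 3.37), 0.455 in the control tumour (0.445 to 0.465), 7.54 in the ligated pancreas (7.38 to 7.71) and 14.9 in the normal pancreas (14.7 to 15.1). Across the 12 named classes of the treated tumour the mean ran from 2.65 in mast or basophil-like to 9.24 in endothelial-like cells. Of the 3179 core UMIs of those endothelial-like cells, 2150 lay in 1 cell, and the median of the class was 2. The next highest mean was 3.88 in epithelial-like cells. Across the 12 of the control tumour the mean ran from 0.139 in mast or basophil-like to 0.814 in epithelial-like cells. Across 6 classes of the ligated pancreas it ran from 4.87 in neutrophil-like to 9.73 in macrophage or monocyte-like cells, and across 4 of the normal pancreas from 10.8 in fibroblast-like to 21.6 in macrophage or monocyte-like cells. The named classes of 1 library thus lay within 2.001-fold of each other in the ligated and in the normal pancreas. In the treated tumour they lay within 3.48-fold, with that 1 endothelial-like cell included, and in the control tumour within 5.86-fold. Measured per UMI, the same classes spread over 6.20 to 7.59-fold, for example 1841 CPM in neutrophil-like and 242.5 CPM in plasma-like cells of the treated tumour. These ranges leave out unnamed cells, which were 39.1% of kept cells of the normal pancreas. There, the 572 cells of unnamed cluster 18 had 14.6 core UMIs per cell and 14570 CPM, against at most 7887 CPM in a named class other than acinar-like. T-like cells, which make no pancreatic enzyme, carried 2.93 core UMIs per cell in the treated tumour, 0.366 in the control tumour and 6.84 in the ligated pancreas, and these set the level at which an enzyme UMI in a cell is background.

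**Figure D1:**
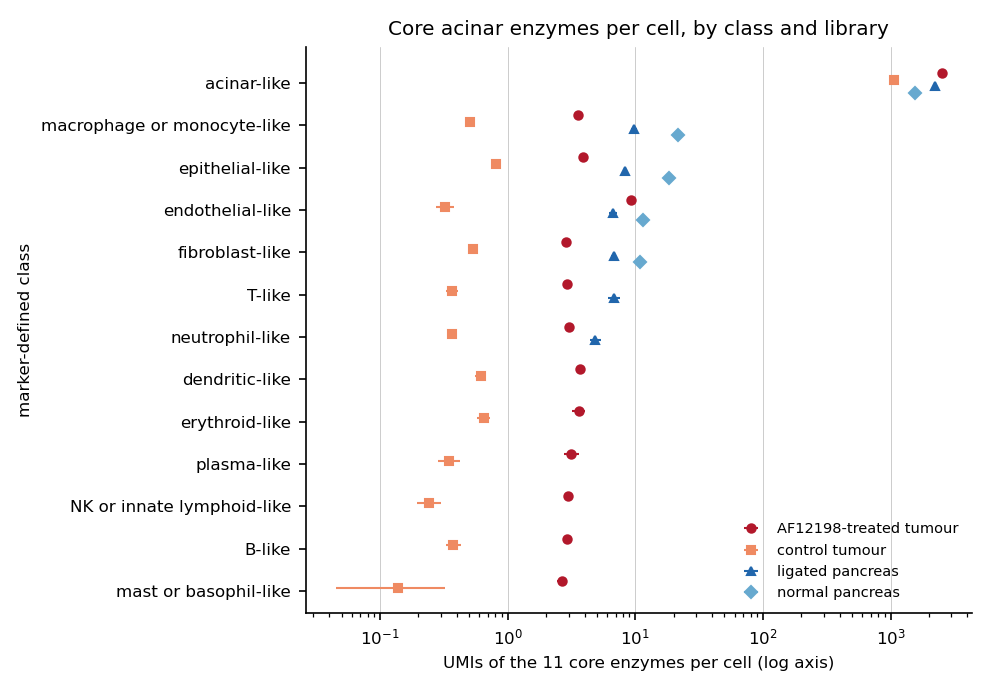
Mean UMIs of the 11 core enzymes per cell (log axis) in each cell class with at least 25 cells and in the acinar-like cells, by library, with exact Poisson intervals. Acinar-like cells lie between 1060 and 2514 UMIs per cell, while the other named classes lie between 0.139 and 21.6, with each class higher in the treated than in the control tumour.

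Over all kept cells, every member measured was higher in the AF12198-treated than in the control tumour. Ctrb1, a chymotrypsinogen, stood at 3612 CPM in the treated tumour, 270 CPM in the control tumour, 957 CPM in the ligated pancreas and 410 CPM in the normal pancreas. The elastase gene Cela2a stood at 236.9, 24.6, 801 and 289 CPM in the same libraries. For Reg3b, a secreted lectin of inflamed pancreas, the levels were 1089, 174, 4.89 and 0.534 CPM. The 3 genes rank the libraries differently: the treated tumour was highest for Ctrb1 and Reg3b, the ligated pancreas for Cela2a, and only Reg3b was near 0 in both tumour-free tissues.

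Between the 2 tumours, 28 of 28 measured members were past 2-fold higher in the treated one and 0 were lower, against 2.41% of 11063 measured genes higher and 10.7% lower. The members' median log2 ratio was 3.11, against -0.36 over all measured genes. Ratios ran from 4.17 (3.64 to 4.79) for Erp27 to 15.96 (15.3 to 16.6) for Cela3b, with Ctrb1 at 13.4, Try5 at 15.7 and Reg3b at 6.25. Of the 28, Prss3, Try10, Erp27 and Pla2g1b reached 5 CPM in the treated tumour alone and passed the minimum through it. The regulators did not pass the minimum: Nr5a2 had 209 UMIs in the treated and 221 in the control tumour, Bhlha15 55 and 137, Rbpjl 101 and 52, and Ptf1a 76 and 13. Left out with them were Ctrc (93 and 13 UMIs), Amy2a2 (59 and 11), Prss1 (92 and 2) and Cela3a (2 and 0). With enzyme-rich barcodes left out, 23 of 23 measured members were past 2-fold higher, against 2.39% of 11053 measured genes, and 0 were lower (9.94% of genes). Their median log2 ratio was then 1.81. Outside acinar-like cells, Try4, Cela2a, Cela3b, Ctrl, Cel, Zg16, Rnase1, Sycn, Gp2, Klk1 and Spink1 lay at 1.51 to 4.73 CPM in the control tumour. They lay above 5 CPM in the treated tumour. The count of 23 left out 47 enzyme-rich barcodes of the control tumour and kept the rest of its 57 acinar-like cells, so its levels there can be higher than these. Members still under 5 CPM in the control tumour passed the minimum through the treated tumour alone. Their direction in that count is not independent of the minimum. Prss2, Try5, Cela1, Cpa1, Cpb1, Ctrb1, Pnlip, Pnliprp1, Clps, Reg1, Reg2 and Reg3b were above 5 CPM in both tumours.

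In the control tumour against the ligated pancreas, 24 of 28 measured members were past 2-fold lower (23.1% of 12613 measured genes) and 2 were higher (12.9% of genes). The members' median log2 ratio was -3.18, against -0.18 over all measured genes. The lowest ratio was that of Nr5a2, 0.0293 (0.0249 to 0.0345), and it is taken up with the epithelial-like cells below. Among the enzymes, elastases and pancreatic lipase were low, with ratios of 0.0307 (0.0291 to 0.0324) for Cela2a, 0.0471 for Cela1 and 0.0535 for Pnlip. Trypsinogens spread widely, at 0.102 for Try4, 0.229 for Prss2, and 0.787 (0.728 to 0.853) for Try5. The 2 members past 2-fold higher were Reg2, with 89.1 CPM in the control tumour and 4.52 CPM in the ligated pancreas, and Reg3b, with 174 and 4.89 CPM. Both lay under 5 CPM in the ligated pancreas and passed the minimum through the control tumour, while Try10, Erp27, Pla2g1b and Nr5a2 passed it through the ligated pancreas alone. The ratios of Reg2 and Reg3b were 19.7 (13.3 to 30.8) and 35.6 (24.3 to 54.6), while the third Reg gene, Reg1, stood at 157 CPM in the control tumour and 292 CPM in the ligated pancreas. This comparison and that of the tumours share the control tumour, and it shares the ligated pancreas with the next.

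In the ligated against the normal pancreas, 21 of 26 measured members were past 2-fold higher (13.9% of 12427 measured genes) and 0 were lower (7.27% of genes). The median log2 ratio of the members was 1.45, against -0.06 over all measured genes. Pnliprp2, a lipase relative, had a ratio of 10.6 (8.51 to 13.3), the granule membrane protein Gp2 8.21 (6.03 to 11.4), Klk1 7.41 and Cel 5.55. Gp2, Try10 and Erp27 lay under 5 CPM in the normal pancreas and passed the minimum through the ligated pancreas alone. Clps at 1.22, Sycn at 1.67, Pla2g1b at 1.49 and Try5 at 1.61 lay under 2-fold, and Nr5a2 at 0.543 (0.4914 to 0.5999) was the only measured member below 1. This result rested on the acinar-like cells: without enzyme-rich barcodes, 11 in the ligated and 2 in the normal pancreas, 0 of 24 measured members were past 2-fold higher (13.8% of genes), 2 were past 2-fold lower (7.09% of genes) and the median log2 ratio was -0.38.

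**Figure D2:**
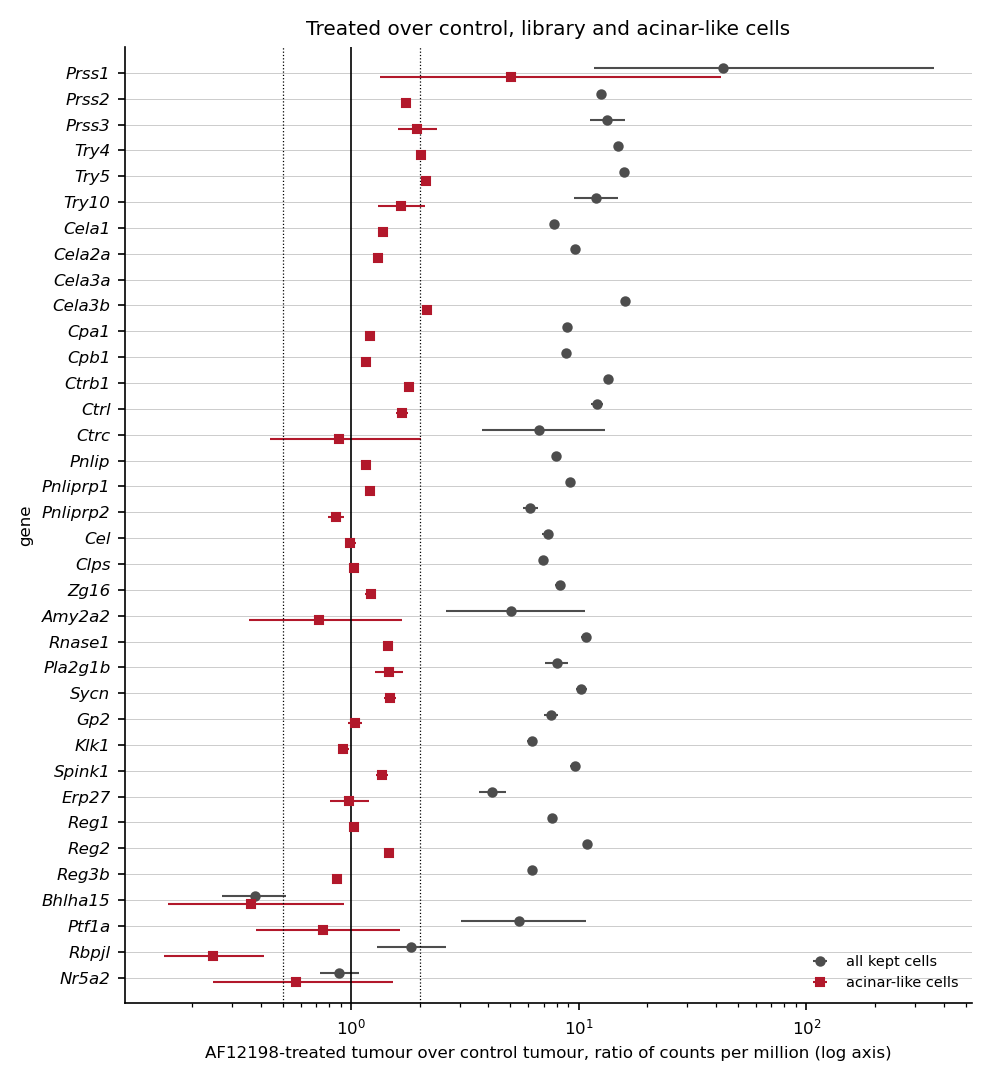
Ratio of CPM, AF12198-treated over control tumour (log axis), for the members over all kept cells and within acinar-like cells, with exact intervals from counting error. Dotted lines mark 2-fold in either direction, and genes under the minimum are drawn too. Over all cells the measured members lie between 4.17 and 15.96, while within acinar-like cells 4 of 35 are past 2-fold higher and 2 past 2-fold lower.

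Within acinar-like cells the treated and control tumours differed far less in enzyme RNA. There, 4 of 35 measured members were past 2-fold higher in the treated tumour (4.36% of 7777 measured genes) and 2 were past 2-fold lower (52.1% of genes). The members' median log2 ratio was 0.28, against -0.97 over all measured genes, so that the members lay above the general level of these cells. Members held 1266088 of the 2382168 UMIs of these cells in the treated and 107922 of 287618 in the control tumour. CPM divides by that total, so a larger share of members lowers the CPM of other genes. How far this sets the level of the other genes was not tested. The 4 higher members were the trypsinogens Prss1, Try4 and Try5 and the elastase Cela3b, and the 2 lower ones were the regulators Bhlha15 and Rbpjl. Try5 stood at 52410 CPM in acinar-like cells of the treated tumour and 24610 CPM in those of the control tumour, a ratio of 2.13 (2.08 to 2.18). Cela3b stood at 16870 and 7858 CPM, a ratio of 2.15 (2.06 to 2.24), and Try4 at 15690 and 7722 CPM, a ratio of 2.03 (1.95 to 2.12). Prss1 had 83 UMIs against 2, and its ratio of 5.01 has an interval from 1.34 to 42.1.

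The other proteases had smaller ratios. Ctrb1 stood at 122700 CPM in acinar-like cells of the treated tumour and 68560 CPM in those of the control tumour (1.79), Prss2 at 60630 and 34820 CPM (1.74), and Cpa1 at 13780 and 11360 CPM (1.21). Carboxypeptidase Cpb1 had 18840 and 16270 CPM (1.16). The lipid-digesting enzymes were as close, where Pnlip had 12280 and 10540 CPM (1.17, 1.12 to 1.21), Clps 18480 and 17940 CPM (1.03), and Cel 4489 and 4530 CPM (0.991, 0.935 to 1.05). Of the Reg genes, Reg1 had 40030 and 39080 CPM (1.02), Reg2 32090 and 21940 CPM (1.46) and Reg3b 35660 and 41090 CPM (0.868, 0.851 to 0.885). The directions of Reg1 and Reg3b between the tumours changed under other cell choices, over which their log2 ratios ran from -0.04 to 0.28 and from -0.26 to 0.06. Spink1, which blocks trypsin that is activated too early, had 6052 CPM in acinar-like cells of the treated and 4440 CPM in those of the control tumour (1.36, 1.29 to 1.45). Among members with over 1000 UMIs in acinar-like cells of each tumour, the trypsinogens, elastases and Ctrb1 thus had ratios of 1.32 to 2.15, the carboxypeptidases ratios of 1.16 and 1.21, and the lipases with colipase ratios of 0.991 to 1.21.

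**Figure D3:**
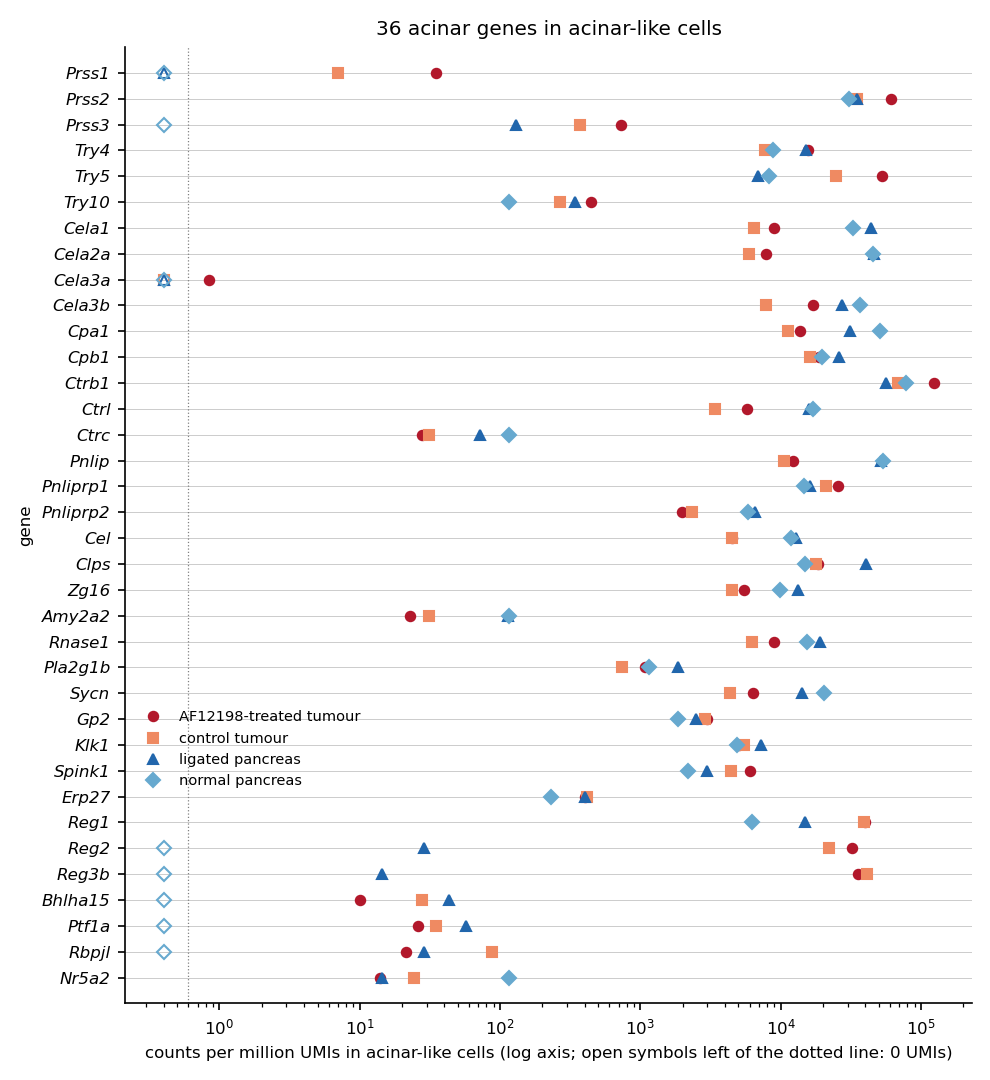
CPM of each member in acinar-like cells (log axis) in the 4 libraries, ordered by role; 326, 57, 11 and 2 cells stand behind the points of the treated tumour, control tumour, ligated and normal pancreas. Reg2 and Reg3b lie at 21940 to 41090 CPM in both tumours and at 0 to 28.6 CPM in both tumour-free tissues, and Cela1 and Cela2a are lower in both tumours.

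Acinar-like cells of the tumours differed from those of the ligated pancreas in the make-up of their enzyme RNA. In the control tumour against the ligated pancreas, 6 of 33 measured members were past 2-fold higher (66% of 3114 measured genes) and 15 were past 2-fold lower (5.33% of genes). The members' median log2 ratio was -0.70, against 1.48 over all measured genes, and the ligated value rests on 11 cells. Of the higher ones, Prss3, Reg2, Reg3b and Rbpjl had 9, 2, 1 and 2 UMIs in the ligated pancreas and passed the minimum through the control tumour. The higher members were Try5, Prss3, Reg1, Reg2, Reg3b and Rbpjl, the last with 25 against 2 UMIs and a ratio of 3.04 whose interval, 0.757 to 26.4, includes 1, and the lower ones included Cela1, Cela2a, Cela3b, Cpa1, Ctrl, Pnlip, Pnliprp2, Cel and Clps. Elastases took 6.32% of all member UMIs in acinar-like cells of the treated tumour, 5.41% in those of the control tumour, 23.1% in those of the ligated pancreas and 23.3% in those of the normal pancreas. Cela2a stood at 7824, 5938, 46410 and 45490 CPM in the same 4 libraries, and Cela1 at 8917, 6491, 44320 and 32670 CPM. The 2 tumours lay together and the 2 tumour-free tissues lay together, with control over ligated ratios of 0.128 (0.121 to 0.136) for Cela2a and 0.146 (0.138 to 0.155) for Cela1.

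Lipases with colipase, as a group counted here together with Pla2g1b, also took a smaller share in both tumours than in both tumour-free tissues. They took 11.99% of member UMIs in acinar-like cells of the treated tumour, 15.2% in those of the control tumour, 25.5% in those of the ligated pancreas and 20.6% in those of the normal pancreas. Pnlip stood at 12280, 10540, 52200 and 53220 CPM, with a control over ligated ratio of 0.202 (0.192 to 0.212), and Cel at 4489, 4530, 12930 and 11780 CPM. Carboxypeptidases took 6.14, 7.36, 11.2 and 14.4% of member UMIs in the same order. Pnliprp1 did not follow the other lipases, with 25410, 20920, 16100 and 14660 CPM in acinar-like cells of the treated tumour, control tumour, ligated and normal pancreas. Nor did Clps in full, with 18480, 17940, 40410 and 14780 CPM, which is lower in the normal pancreas than in both tumours. Trypsinogens ran the other way as a group, with 24.5, 18.1, 11.3 and 9.74% of member UMIs. Within that group Try5 had 52410, 24610, 6931 and 8197 CPM, while Try4 had 15690, 7722, 15250 and 8774 CPM and Prss2 60630, 34820, 35140 and 30820 CPM. Between the control tumour and the ligated pancreas, Try5 thus had a ratio of 3.55 (3.24 to 3.90), while Prss2 was at 0.991 and Try4 at 0.506.

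Trypsinogen genes stand close together on chromosome 6 and resemble each other, and counting that needs a read to fit 1 gene can lose or misplace their reads. Of the 90-base windows in the last 500 bases of its coding transcripts, Try5 shared 36.3% exactly with Try4, which shared 27.7% with Try5. Prss3 shared 54.99% with Gm10334 as the main partner, Prss1 35.3% with other genes together, 20.7% with Gm5771, and Try10 14.4%, while Prss2 shared 0. Cela2a shared 53.8% with Ctrc, whose annotated span contains it, so the level of Cela2a is uncertain, while Cela1, with a control over ligated ratio of 0.146, shared 0. Amy2a2 shared all of its windows with Amy2a4, so its low count is uncertain too. Klk1 shared 11.5% of its windows, Cela3b 11.4% and Cela3a 6.57%, and the other members shared 0.

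Reg2 and Reg3b had the largest control over ligated ratios of all members in acinar-like cells. Reg proteins took 20.3% of member UMIs in acinar-like cells of the treated tumour, 27.2% in those of the control tumour, 2.92% in those of the ligated pancreas and 1.27% in those of the normal pancreas. Reg3b had 84954 UMIs in 326 cells of the treated tumour and 11817 UMIs in 57 cells of the control tumour, against 1 UMI in 11 cells of the ligated pancreas and 0 UMIs in the 2 cells of the normal pancreas. It was found in 318 of 326, 57 of 57, 1 of 11 and 0 of 2 acinar-like cells. Its median share of a cell's UMIs was 2.58% in the treated tumour and 4.26% in the control tumour, with highest values of 11.6 and 10.7%. The lowest cell of the control tumour had 0.126%, above the 0.0238% of the highest cell of the ligated pancreas, while the treated tumour had 8 cells with none.

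Reg2 had 76449 UMIs in acinar-like cells of the treated tumour and 6310 in those of the control tumour, against 2 in the ligated and 0 in the normal pancreas. At least 1 UMI of it was found in 326, 56, 1 and 0 of these cells. With so few UMIs in the ligated pancreas, the control over ligated ratio was 766 for Reg2, with an interval from 212 to 6327. For Reg3b it was 2869 (515 to 113300). Reg1, by contrast, was found in every acinar-like cell of the 4 libraries. It stood at 40030, 39080, 14850 and 6234 CPM in the treated tumour, control tumour, ligated and normal pancreas, and its control over ligated ratio was 2.63 (2.47 to 2.81). Of the Reg genes, Reg1 was thus present in the ligated and normal pancreas too, whereas Reg2 and Reg3b were nearly confined to the tumours among these acinar-like cells.

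**Figure D4:**
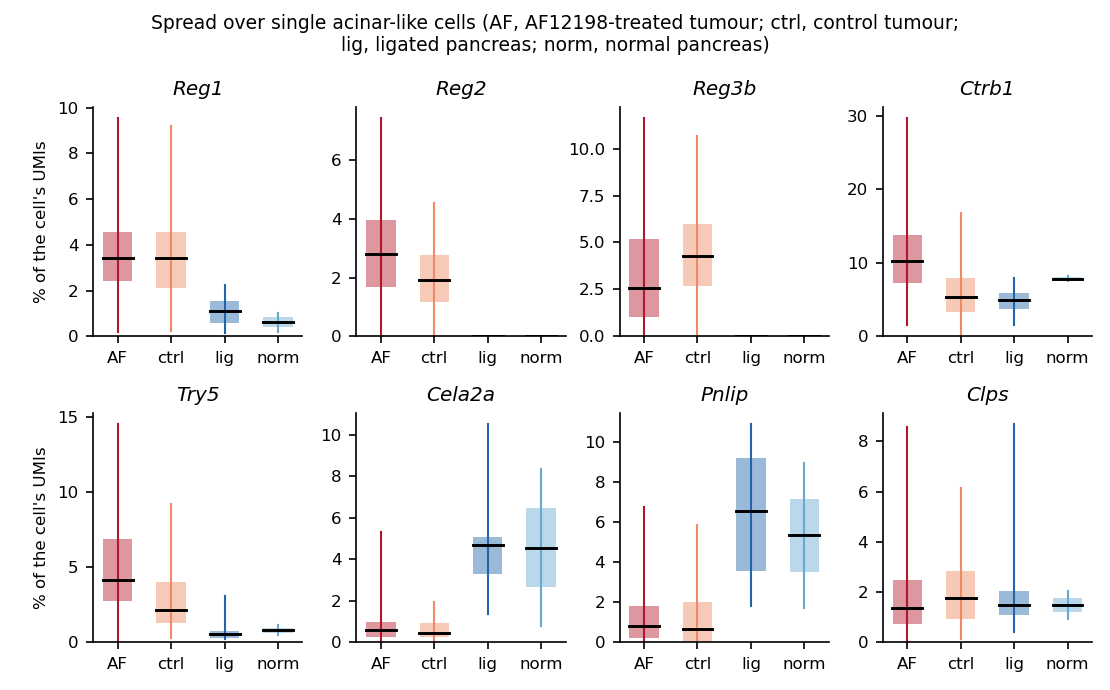
Share of each acinar-like cell's UMIs (percent) for Reg1, Reg2, Reg3b, Ctrb1, Try5, Cela2a, Pnlip and Clps by library, with the median as a black line, the quartiles as a box and the lowest to highest cell as a thin line. Medians of Cela2a and Pnlip are 0.462 to 0.804% in both tumours and 4.69 and 6.54% in the ligated pancreas, and Reg3b runs the other way.

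Single cells showed the same contrast in elastase and lipase. Cela2a took a median of 0.599% of a cell's UMIs in the treated tumour (0 to 5.32%), 0.462% in the control tumour (0 to 1.96%), 4.69% in the ligated pancreas (1.38 to 10.5%) and 4.57% in the 2 cells of the normal pancreas (0.804 and 8.33%). The ligated range began above the upper quartile of the treated tumour, 0.979%, but overlapped its highest cells. Pnlip took a median of 0.804% in the treated tumour (0 to 6.77%), 0.648% in the control tumour (0 to 5.83%), 6.54% in the ligated pancreas (1.81 to 10.9%) and 5.34% in the normal pancreas (1.72 and 8.96%). The highest cell of the treated tumour thus lay above the median of the ligated pancreas for both genes.

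The regulators were rare in acinar-like cells of all 4 libraries. They took 0.0134% of member UMIs in the treated tumour, 0.0463% in the control tumour, 0.0281% in the ligated pancreas and 0.0235% in the normal pancreas. Ptf1a, the DNA-binding core of PTF1, had 62, 10, 4 and 0 UMIs in acinar-like cells, and Rbpjl, its acinar partner, 51, 25, 2 and 0. Bhlha15, which maintains the secretory apparatus, had 24, 8, 3 and 0 UMIs, and Nr5a2 had 33, 7, 1 and 1. Scaled to depth, Rbpjl was lower in acinar-like cells of the treated tumour, at 21.4 CPM, than in those of the control tumour, at 86.9 CPM (ratio 0.246, 0.150 to 0.415), and Bhlha15 likewise at 10.1 and 27.8 CPM (0.362, 0.157 to 0.933). A UMI of Rbpjl was found in 42 of 326 acinar-like cells of the treated tumour (12.9%) and 7 of 57 of the control tumour (12.3%), so the 25 UMIs of the control tumour lay in 7 cells. For Ptf1a (0.749, 0.381 to 1.64) and Nr5a2 (0.569, 0.248 to 1.53) a difference between the tumours was not detectable at this depth. The median of all measured genes between the same cells was a log2 ratio of -0.97.

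Related gene lists place the members among other acinar functions. The other acinar genes are, apart from Gatm, the markers that named the acinar-like cluster. Of 10 other acinar genes, 6 of 7 measured were past 2-fold higher in the treated than in the control tumour over all cells and 0 were lower. Of all measured genes, 2.41% were higher and 10.7% lower. The acinar-like share was itself 5.83-fold higher in the treated tumour, so this count is not separate from that share. Serpini2, a serpin, stood at 17.2 CPM in the treated and 2.33 CPM in the control tumour, and passed the minimum through the treated tumour alone. Gatm, which makes creatine precursor, was the exception, with 101 CPM in the treated and 193 CPM in the control tumour. Within acinar-like cells 1 of these 10 was past 2-fold higher, Gm5771 (4.36% of all measured genes), and 1 was lower, Gatm (52.1% of genes).

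Genes of the machinery that folds and ships the enzymes differed less over all cells. Of 15 measured secretory pathway genes, 0 were past 2-fold higher or lower between the tumours over all cells. Within acinar-like cells 7 of 15 were past 2-fold lower in the treated tumour and 1, Sdf2l1, was higher, with a median log2 ratio of -0.72. The transcription factor Xbp1 had 304 CPM in acinar-like cells of the treated and 713 CPM in those of the control tumour, and the chaperone Hspa5 300 and 622 CPM. Among secretion genes 4 of 7 were past 2-fold lower there, including the cholecystokinin receptor Cckar at 160 and 348 CPM. Of 8 measured transcription factors beyond the members, 7 were past 2-fold lower there and 0 higher. These shares stand beside the 52.1% of all measured genes that were past 2-fold lower in the same cells.

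A list of genes known from acinar-to-ductal metaplasia, the change of injured acinar cells towards duct cells, was read in the same cells. In the control tumour against the ligated pancreas, 10 of 11 measured list genes were past 2-fold higher in acinar-like cells and 1 was lower, beside 66 and 5.33% of all measured genes. Sox9, Krt19, Krt8, Krt18, Onecut2, Cd44, Spp1 and Klf4 had 0 to 6 UMIs in those cells of the ligated pancreas. They passed the minimum of 10 UMIs through the control tumour, so their direction in that count is not independent of the minimum. In the treated against the control tumour, 0 of 13 were past 2-fold higher and 7 were past 2-fold lower, and the share of lower ones lay near the 52.1% of all measured genes. Clu, a secreted chaperone raised in injured acinar cells, had 2638 CPM in acinar-like cells of the treated tumour, 4103 CPM in those of the control tumour and 501 CPM in those of the ligated pancreas, against 759, 1027 and 2836 CPM in the other cells. Krt18, a keratin that is not particular to ductal cells, had 401, 661 and 57.3 CPM, against 323, 352 and 568 CPM in the other cells. Tff2, a trefoil peptide, was the list gene past 2-fold lower in the control tumour, with 2331, 1415 and 3437 CPM, against 24.6, 40.8 and 25.5 CPM in other cells.

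Most other list genes lay near or below the level of the cells around them. Spp1 had 172 CPM in acinar-like cells of the treated and 497 CPM in those of the control tumour, against 1846 and 1810 CPM in the other cells of those tumours, and Vim 98.2 and 522 CPM against 1104 and 1306 CPM. Krt19 had 52.9 and 34.8 CPM against 151 and 160 CPM, and Sox9 23.1 and 90.4 CPM against 30.1 and 72.3 CPM. Krt8 had 278 and 796 CPM against 393 and 620 CPM. Clu and Tff2 were thus the list genes that stood furthest above the surrounding cells in both tumours. Whether RNA of neighbouring cells takes part in the remainder was not tested.

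To tell enzyme RNA that came with the acinar cells' RNA from RNA made elsewhere, each member was set against the core enzymes within each class. RNA from 1 source was taken to keep its genes in 1 ratio in every class of a library, which is an assumption. A member is listed as beyond that ratio where it had at least 10 UMIs and lay at least 2-fold above its ratio in the other cells that are not acinar-like, with an interval above 1. Of 540 gene and class pairs in the treated tumour 8 were beyond it, of 432 in the control tumour 11, of 216 in the ligated pancreas 4 and of 216 in the normal pancreas 2. With acinar-like cells counted among the others, the numbers were 11, 28, 6 and 2. The 11 core enzymes are part of the sum they are set against, which holds their own ratio down, so no reading is drawn from those that stayed below the line. Of the members outside that sum, Ctrl, Pnliprp1, Rnase1 and Spink1 were beyond the ratio in no class under either reference.

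Outside acinar-like cells, Nr5a2 departed from the enzymes. It was beyond the enzyme ratio in epithelial-like cells of all 4 libraries and in endothelial-like cells of both tumours. In epithelial-like cells it had 105 UMIs in the treated tumour, 133 in the control tumour, 487 in the ligated pancreas and 1831 in the normal pancreas. Those counts were 18.7, 12.04, 97.2 and 26.3 times the number the enzyme ratio gives. Over all epithelial-like cells the level was 7.96, 8.01, 220 and 206 CPM. These cells are not alike in the 4 libraries, however: clusters 10 and 15, with 637 and 451 cells in the treated and 646 and 553 in the control tumour, had Nr5a2 at 0 to 0.521 CPM. Cluster 13, whose leading genes include the ductal genes Onecut1, Pkhd1 and Dcdc2a, held 81 cells of the treated tumour, 87 of the control tumour, 329 of the ligated pancreas and all 578 of the normal pancreas.

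Within cluster 13 alone, Nr5a2 stood at 108 CPM in the treated tumour (88.6 to 131), 182 CPM in the control tumour (152 to 216), 224 CPM in the ligated pancreas and 206 CPM in the normal pancreas. It was found in 64.2, 51.7, 59.3 and 72.2% of these cells. The control over ligated ratio was 0.812 (0.664 to 0.987) in cluster 13, against 0.0364 (0.0298 to 0.0442) over all epithelial-like cells, and the treated over control ratio was 0.597 (0.457 to 0.778), against 0.993. The low ratio over all epithelial-like cells went with the many cells of clusters 10 and 15 in the tumours. Ligated over normal, the ratio was 1.09 in cluster 13 and 1.07 over the class.

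**Figure D5:**
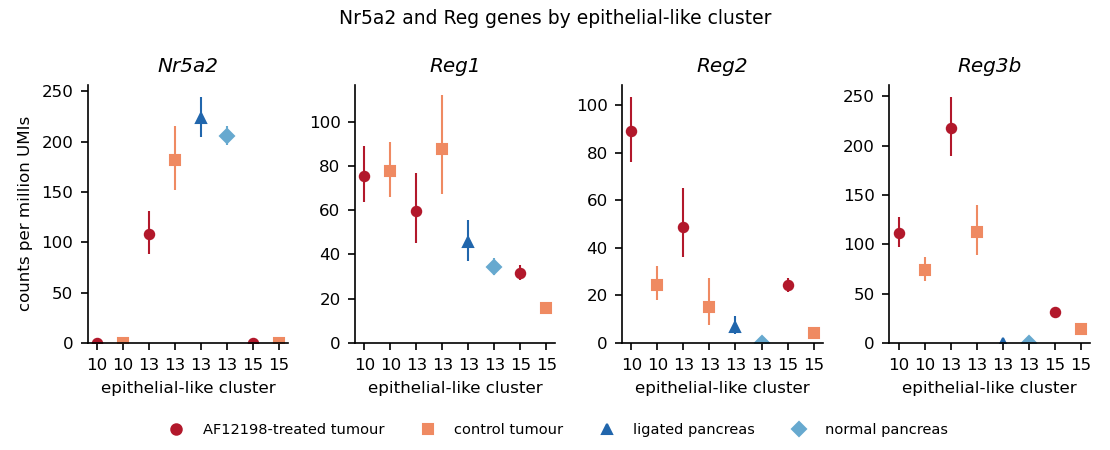
CPM of Nr5a2, Reg1, Reg2 and Reg3b in the 3 epithelial-like clusters, by library, with exact Poisson intervals. Nr5a2 is at 108 to 224 CPM in cluster 13 of every library and at most 0.521 CPM in clusters 10 and 15 of both tumours.

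Endothelial-like cells had Nr5a2 at 25.1 CPM in the treated tumour, 28.7 CPM in the control tumour, 17.7 CPM in the ligated pancreas and 39.1 CPM in the normal pancreas. The intervals of the treated over control, control over ligated and ligated over normal ratios each include 1. In the treated tumour the count of 54 UMIs was 8.18 times (5.83 to 11.4) that of the enzyme ratio. In the control tumour the count of 59 UMIs was 20.1 times (14.6 to 27.3) that of the ratio. Of the 3179 core UMIs behind the treated value 2150 lay in 1 cell, which lowers it, so both values are not compared. Macrophage or monocyte-like cells had 0.0938 CPM in the treated and 0.280 CPM in the control tumour, and fibroblast-like cells 0.348 and 0.436 CPM. Nr5a2 was thus nearly absent from the surrounding myeloid and stromal cells of the tumours. Over all kept cells its level was 2.44, 2.75, 93.7 and 172 CPM, beside cluster 13 with 81 of 18875, 87 of 19235, 329 of 1124 and 578 of 1771 cells.

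Bhlha15 was carried by plasma-like cells, which like acinar cells secrete protein in bulk and are known to use this factor. It had 15 UMIs in the 68 plasma-like cells of the treated tumour and 106 UMIs in the 296 of the control tumour, where the enzyme ratio gives fewer than 1. That is 16.9 CPM and 40.1 CPM, a treated over control ratio of 0.422 (0.228 to 0.729). A UMI was found in 19.1% of plasma-like cells of the treated and 26.0% of those of the control tumour. Once each cell was thinned to 1000 UMIs, the shares were 0 and 4.83%. That 0 is from 67 cells of the treated tumour, with an interval up to 5.36% that includes the control value. Thinned to 500 UMIs, 1 of 68 cells of the treated tumour had a UMI (1.47%). In T-like cells the thinned share was 0 in the treated and 0.135% in the control tumour. The lower Bhlha15 sum of the treated tumour, 55 UMIs against 137, thus went with fewer plasma-like cells as well as a lower level in them.

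Klk1, a tissue kallikrein, was beyond the ratio in dendritic-like cells, with 190 UMIs (36.4 CPM) in the treated and 108 UMIs (27.7 CPM) in the control tumour. These were 4.86 times (4.12 to 5.70) and 7.21 times (5.71 to 9.04) the counts of the enzyme ratio. Erp27, a partner of the folding enzyme Pdia3, was beyond it in macrophage or monocyte-like cells at 3.03 CPM in the treated and 3.13 CPM in the control tumour. Pla2g1b was beyond it in epithelial-like cells of the control tumour, with 66 UMIs against 6.96 at the ratio, and 51 of them lay in cluster 15. Ctrc had 17 UMIs in dendritic-like cells of the treated tumour, and Rbpjl 20 in epithelial-like cells of the treated tumour, 16 in fibroblast-like cells of the control tumour and 16 in epithelial-like cells of the normal pancreas. The remaining pairs were Cela1 in epithelial-like cells of the control tumour (2.11 times the ratio), Pnliprp2 in its B-like cells (10 UMIs), Gp2 in its unnamed cluster 5 (19 UMIs) and Clps in unnamed cluster 30 of the treated tumour (18 UMIs). These last counts of Ctrc, Rbpjl, Pnliprp2, Gp2 and Clps are small, and Klk1 shares part of its transcript end with Klk1b5. With acinar-like cells counted among the others, Cela1 was beyond the ratio in more classes. In the control tumour it stood at 5.61 times the ratio in epithelial-like, 4.32 in fibroblast-like and 3.76 in macrophage or monocyte-like cells. NK or innate lymphoid-like, T-like and unnamed cluster 5 cells had 2.12 to 2.82 times. In the treated tumour it stood at 2.24 times in epithelial-like and 2.34 in macrophage or monocyte-like cells.

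The Reg genes were beyond the ratio in epithelial-like cells of the ligated pancreas, where 75 of 336 cells had a UMI of Reg1, 9 of Reg2 and 2 of Reg3b, and Reg1 also in those of the control tumour, with 437 UMIs against 129 at the ratio. Reg1 had 312 UMIs in epithelial-like cells of the ligated pancreas, of which 209 were in 4 cells of cluster 15, 4 in 3 cells of cluster 10 and 99 in 329 cells of cluster 13. All 23 UMIs of Reg3b in ligated epithelial-like cells were likewise outside cluster 13, where it had 0 in 329 cells. In cluster 13 Reg1 stood at 59.4 CPM in the treated tumour, 87.4 CPM in the control tumour, 45.6 CPM in the ligated pancreas and 34.5 CPM in the normal pancreas. Over all epithelial-like cells the control over ligated ratio of Reg1 was 0.187 (0.161 to 0.217) and in cluster 13 it was 1.92 (1.38 to 2.66), the opposite direction. Reg3b in cluster 13 stood at 218 CPM in the treated tumour, 112 CPM in the control tumour, 0 CPM in the ligated pancreas and 0.337 CPM in the normal pancreas. In both tumours single cells weighed on that sum, with 79 of 209 UMIs in 1 cell of the treated and 23 of 81 in 1 cell of the control tumour. Against the enzyme ratio of the other cells these ductal-gene cells had 2.63 and 3.51 times the Reg3b expected in the treated and control tumours. The same tumours had Reg3b in 31.9 and 8.63% of all epithelial-like cells and in 28.6 and 5.48% of T-like cells, so a UMI of it in a single cell is near the background of its library.

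In cells that were not acinar-like, several enzymes departed from their proportions in acinar-like cells, colipase among them. Clps made up 5.84% of core UMIs in these cells of the treated tumour, 14.6% in the control tumour, 21.8% in the ligated pancreas and 30.0% in the normal pancreas. In acinar-like cells it made up 5.37, 8.54, 11.6 and 4.11%. The ratio of both shares was 1.09 (1.05 to 1.13), 1.72 (1.61 to 1.82), 1.89 (1.78 to 2.01) and 7.29 (6.12 to 8.74), the last against 128 UMIs in 2 cells. The other core enzymes of the normal pancreas ran from 0.3155 for Cpa1 to 2.23 for Try4. The core enzymes thus did not keep the 1 ratio assumed above between acinar-like and other cells. Against the core sum, Cela1 and Pla2g1b both had a ratio of 3.82 in the control tumour. Pla2g1b stood at 2.60 in the ligated and 4.01 in the normal pancreas, where Pnliprp2 stood at 0.196 and 0.109. In the treated tumour the ratios of the 11 core enzymes ran from 0.788 for Ctrb1 to 1.22 for Prss2, while Cela1 had 1.69 (1.63 to 1.76), Erp27 2.48 and Ctrc 5.41.

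Outside the member list, the genes whose log2(CPM + 1) was most like that of the summed core enzymes over 44 sums by class and library included 2210010C04Rik (Pearson r 0.992), Amy2a5 (0.888), Pdia2 (0.877) and 1810028F09Rik (0.852). Tff2 (0.810), Serpini2 (0.803), Cuzd1 (0.794), Amy1 (0.756) and Klk1b5 (0.744) were also among them. The sums share libraries and depth, and without the acinar-like sums the coefficients were lower, at 0.986 for 2210010C04Rik and 0.497 for Klk1b5. Among the members the coefficient was 0.987 for Cpb1 and 0.985 for Rnase1, whereas it was 0.370 for Reg2, 0.241 for Reg3b, 0.316 for Bhlha15 and 0.489 for Nr5a2. Without the acinar-like sums it was -0.16 for Reg2, -0.365 for Reg3b, -0.05 for Bhlha15 and 0.470 for Nr5a2, and Rbpjl (0.293), Prss3 (0.392), Erp27 (0.397) and Ctrc (0.460) then lay below Nr5a2.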

How the data were processed

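Single-cell RNA of 4 mouse pancreas libraries, 1 per group, was measured with 10x Genomics 3′ chemistry. The deposited values are whole-number UMI counts per gene and barcode, and the submitters' processing notes name Cell Ranger 6.0.0 and build mm10. How cells were called, and with which annotation and strand setting, is not given in the sources used here. Reads that fit several near-identical genes may be lost in such counting.

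Cells with at least 250 genes, at least 500 UMIs and at most 20% mitochondrial UMIs were kept. Scrublet removed 2163 doublets in the control tumour, 0 in the ligated and 1 in the normal pancreas. In the AF12198-treated tumour its automatic threshold called 1 cell, so the top 5%, 993 cells, were removed. Cells were scaled to 10000 UMIs, and 2000 variable genes, 40 principal components, 20 neighbours and Leiden resolution 1 gave 32 clusters. A cluster was named "-like" from at least 3 listed markers raised 2-fold, thresholds set after the data were examined, and 5 stayed unnamed.

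Raw counts were summed per library and class and divided by all UMIs (CPM). Intervals are exact Poisson, Clopper-Pearson or exact conditional. With 1 library per group no p-value is given. Log2 medians used CPM plus 1. The 2-fold calls over whole libraries were tested on simulated counts. Cell filters, clustering, class names and the enzyme ratio were not tested in that way. Python 3.11.15, Scanpy 1.11.5, NumPy 2.4.6, SciPy 1.17.1, pandas 2.3.3, leidenalg 0.10.2 and matplotlib 3.10.9 were used.

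All 36 members may be named, with list genes, markers, leading cluster genes and the 10 genes most like the core enzymes, 1 of which is not reported here. Members and lists were chosen with earlier results of these data known. A comparison of trypsinogen proteins was not made, and shared transcript ends are given in its place. Alternatives were other cell filters, doublets kept, other resolutions, clustering without the members, other denominators, thresholds and thinning depths, and leaving out enzyme-rich barcodes. Cluster 13 alone, the ratio without acinar-like cells and members within acinar-like cells under other clusterings were added after seeing the data.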

Additional observations from a re-analysis of the deposited data

Results flagged for a closer look

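In epithelial-like cells Reg1 was 4.08-fold higher in the ligated than in the normal pancreas, with 312 and 307 UMIs and levels of 141 and 34.5 CPM, while in fibroblast-like cells Reg1 stood at 31.9 CPM in the ligated and 82.0 CPM in the normal pancreas. The difference between both classes was not tested, and each group is 1 library. In cluster 13 alone, which holds 329 of the 336 epithelial-like cells of the ligated pancreas and all of those of the normal pancreas, the ratio of Reg1 was 1.32 (1.04 to 1.66).

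Rbpjl was 8.38-fold higher in epithelial-like cells of the AF12198-treated than of the control tumour, with 20 and 3 UMIs, while in acinar-like cells it was 0.246 times the control level, with 51 UMIs in 42 cells of the treated and 25 UMIs in 7 cells of the control tumour. The difference between both classes was not tested. All 20 UMIs of the treated tumour lay in cluster 15, in 19 of its 451 cells.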

How the results depend on the processing

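No paired analysis was possible because each group is 1 library. For summary values, which have no test, an alternative is given here where it moved the value beyond its own counting interval or a median log2 ratio by over 0.1, and the cause was not tested. The summed core enzymes stood at 10200 CPM in the treated tumour, 951 CPM in the control tumour, 5705 CPM in the ligated and 1516 CPM in the normal pancreas under the stricter cell filter of 500 genes, 1000 UMIs and 10% mitochondrial UMIs. With no cell filter they stood at 9587, 810, 6281 and 2951 CPM in the same libraries. Without mitochondrial genes, Gm42418 and AY036118 in the denominator they stood at 11430, 961, 7441 and 2912 CPM, and without enzyme-rich barcodes at 756, 145, 1600 and 2351 CPM. With doublets kept they were 9863 CPM in the treated and 840 CPM in the control tumour. The order of the libraries changed only without enzyme-rich barcodes, where the normal pancreas was highest.

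The median core level over named classes of the control tumour, 117 CPM, was 130 CPM with the other denominator, 102 CPM with doublets kept and 143 CPM with the members left out of the clustering. That of the ligated pancreas, 2762 CPM, was 2151 CPM under the stricter filter. That of the normal pancreas, 3834 CPM over 4 classes, was 1686 CPM with members left out of the clustering and 2467 CPM under the stricter filter.

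Under the stricter filter acinar-like cells were 1.44% of the treated tumour and 0% of the normal pancreas, and enzyme-rich barcodes 1.45 and 0%. Enzyme-rich barcodes at the 20% line were 1.49% of the treated and 0.161% of the control tumour, and at the 5% line 0.960% of the normal pancreas.

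The members' median log2 ratio between the treated and control tumour was 1.81 without enzyme-rich barcodes and 2.98 under the stricter filter. Between the control tumour and the ligated pancreas it was -3.31 with the other denominator, -3.30 with no cell filter and -2.96 under the stricter filter. Between the ligated and normal pancreas it was 1.60 with the other denominator, 1.28 with no cell filter and 2.10 under the stricter filter, but -0.38 without enzyme-rich barcodes. In that last setting 0 members were past 2-fold higher and 2 past 2-fold lower, and 11 changed direction, with log2 ratios of -0.39 for Cela2a, -0.74 for Cela3b, -0.38 for Cpa1, -0.12 for Cpb1, -0.68 for Ctrb1, -0.34 for Ctrl, -0.50 for Prss2, -0.83 for Rnase1, -0.37 for Spink1, -0.13 for Try4 and -0.44 for Zg16. Past 2-fold lower were 1 member in the ligated against the normal pancreas at a line of 1.5-fold or with no minimum count, and 1 between the tumours with no minimum count. The other 43 counts of members stayed within 1.5 times their value. No other member changed direction over all kept cells.

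Pairs beyond the enzyme ratio were 11 in the control tumour with acinar-like cells left out, and 1 in the normal pancreas under the stricter filter. The share of plasma-like cells of the control tumour with Bhlha15 was 26.0% not thinned and 2.37% at 500 UMIs. In the treated tumour it was 19.1 and 1.47%, the last from 1 of 68 cells. The share of epithelial-like cells with Nr5a2 was 58.3% not thinned and 13.7% at 500 UMIs in the ligated pancreas, and 72.2 and 8.82% in the normal pancreas. Reg3b was found, not thinned, in 97.6% of acinar-like cells of the treated and 100% of those of the control tumour, also 100% at 500 UMIs in the control tumour, and in 8.63% of its epithelial-like cells.

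In cluster 13 alone the treated over control ratio was 0.597 for Nr5a2, 0.680 for Reg1 and 1.94 for Reg3b, the control over ligated ratio 0.812 for Nr5a2 and 1.92 for Reg1, and the ligated over normal ratio 1.32 for Reg1. With members left out of the clustering the control over ligated ratio of Reg1 in epithelial-like cells was 0.226 and the treated over control ratio of Reg3b 1.84. Of the log2 ratios of single members, 230 over all kept cells moved by over 0.1 and 169 did not, besides the 11 above. Within acinar-like cells, 44 log2 ratios of 9 members moved beyond their interval and 46 did not, by at most 1.41-fold. Treated over control, Ctrb1 ran from 0.80 to 1.10, Prss2 from 0.74 to 1.13 and Try5 from 1.00 to 1.42, so that with doublets kept Ctrb1 and Prss2 were past 2-fold too, Ctrb1 also under the stricter filter, and with members left out of the clustering Try5 was just under it. Control over ligated, Ctrb1 ran from -0.08 to 0.28. Depth limits the regulators, Ctrc, Amy2a2, Prss1 and Cela3a: Ptf1a, Rbpjl, Bhlha15 and Nr5a2 had 0 to 62 UMIs in the acinar-like cells of each library, and a single library with 2 or 11 acinar-like cells carries each statement on normal or ligated acinar-like cells.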
